A study of Drosophila melanogaster with 3 samples.

Results

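Many fly genes have more than 1 promoter, and a promoter inside a gene gives rise to shorter transcripts. Peaks of the protein CG18262 at such internal alternative start sites numbered 508 of the 8529 peaks in the thresholded list (5.96%), and they lay at 392 genes. A peak was a member when its summit, the highest point of the peak, lay within 500 bp of start sites of exactly 1 protein-coding gene and the nearest such start was more than 1000 bp downstream of the outermost 5' start of that gene. The remaining peaks were 1510 at an outermost start of 1 gene, 1205 near starts of more than 1 gene and 5306 with no protein-coding start within 500 bp. The closest comparison class was that of the 1510 outermost-start peaks. Within the thresholded list the rule used position alone, so sequence was free to vary. Peak strength and agreement between replicates could vary only among the strongest pooled peaks, which make up that list.

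The study mapped CG18262, a zinc-finger protein, by chromatin immunoprecipitation and sequencing (ChIP-seq) in whole Drosophila melanogaster embryos. A single group was measured: embryos of mixed sex, 0 to 16 hours old, of 1 transgenic line that stably carries CG18262 with a C-terminal GFP tag, precipitated through the tag in 3 biological replicates. Whole embryos hold many tissues, so a peak can come from any part of them, and whether the tagged protein is present at its normal level was not tested. The deposited files are 1 peak list per replicate, 1 from the pooled replicates and the thresholded part of the pooled list. Read counts were not analysed here, so the depth is unknown.

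A core promoter is the short stretch around a start site that recruits RNA polymerase II. In flies, promoters of genes used in most cells often carry DRE, M1BP or Ohler 7 sequences, whereas developmentally regulated promoters often carry GAGA, Initiator or TATA sequences. The GAGA factor, encoded by Trl, binds GAG repeats and opens chromatin there, and DREF, BEAF-32 and M1BP bind the sequences named after them. An internal promoter can give a protein with another N-terminus, or the same protein under another control region.

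A GAGA sequence stood near the start at many members. The 100 bases before the internal start are shown for the 4 strongest members found in all 3 replicate lists that held a GAGAG or its reverse complement there and where no annotated UTR overlapped, with these letters in capitals. All sequences are from RefSeq for dm6, 5' to 3' on the strand of the gene.
gish, chr3R:16280789-16280888, plus strand: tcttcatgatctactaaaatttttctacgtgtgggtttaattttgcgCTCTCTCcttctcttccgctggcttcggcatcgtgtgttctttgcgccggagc
for, chr2L:3632155-3632254, minus strand: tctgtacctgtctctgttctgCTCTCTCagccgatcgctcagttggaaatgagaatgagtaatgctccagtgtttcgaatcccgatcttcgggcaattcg
CG17834, chr2L:8535686-8535785, plus strand: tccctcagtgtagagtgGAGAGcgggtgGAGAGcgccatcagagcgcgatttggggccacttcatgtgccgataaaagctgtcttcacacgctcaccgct
Eip75B, chr3L:17999822-17999921, minus strand: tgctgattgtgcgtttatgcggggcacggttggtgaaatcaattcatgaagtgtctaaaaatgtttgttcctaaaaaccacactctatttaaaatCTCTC

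At the summits themselves, which lay at a median of -246 bp from the start, the sequence was rich in A and T. The 101 bp centred on the summit are shown for 5 of the strongest members with a listed sequence and for 1 with none, PAN3. Capitals mark a known sequence on either strand, which is ACTGA (the Initiator in reverse) at gish and ph-p, TATAAA at RapGAP1, CGATA (the BEAF-32 core) at for and GAGAG at pdgy. They also mark AT-rich 8-base words described further on, AAATAAAT and AATAAATA at ph-p, ATTTAAAA at for, and TTTAAAAA and AATAAATA in reverse at pdgy. Of these, for joins CGATA and ATTTAAAA in 1 run, because they overlap.
gish, chr3R:16280673-16280773, plus strand: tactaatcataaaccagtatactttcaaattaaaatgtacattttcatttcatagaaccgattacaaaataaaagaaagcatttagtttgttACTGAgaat
ph-p, chrX:2137285-2137385, minus strand: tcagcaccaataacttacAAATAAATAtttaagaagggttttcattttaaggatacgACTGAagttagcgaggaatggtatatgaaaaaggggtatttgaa
RapGAP1, chr2L:7530704-7530804, minus strand: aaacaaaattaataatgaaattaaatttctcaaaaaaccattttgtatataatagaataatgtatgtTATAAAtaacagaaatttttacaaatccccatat
for, chr2L:3632457-3632557, minus strand: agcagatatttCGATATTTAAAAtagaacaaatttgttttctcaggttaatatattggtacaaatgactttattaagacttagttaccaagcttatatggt
pdgy, chrX:14950979-14951079, minus strand: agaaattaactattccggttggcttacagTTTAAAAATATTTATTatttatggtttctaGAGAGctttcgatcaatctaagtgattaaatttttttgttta
PAN3, chr3L:3081386-3081486, plus strand: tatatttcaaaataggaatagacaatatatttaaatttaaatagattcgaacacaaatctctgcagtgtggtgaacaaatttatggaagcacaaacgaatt

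Internal starts with a thresholded CG18262 peak held the GAGA sequence more often than internal starts without one. GAGAG lay between 100 bp before and 50 bp after the start at 202 of 462 member starts (43.7%). Among 2339 internal starts with no thresholded summit within 500 bp, it lay at 616 (26.3%). Peaks below the threshold were not counted, so starts of this second group can have a weaker peak. The difference was 17.4 percentage points (95% interval 12.6 to 22.3), with an odds ratio of 2.17 (two-sided Fisher's exact test, p adjusted by the Benjamini-Hochberg method over 15 sequences = 4.91e-12). Starts of a gene within 150 bp of each other were counted as 1 here. Over all 19607 start positions of protein-coding genes, 20.5% held it. This comparison was added after the data were seen. The odds ratio was 2.97 among the stronger members and from 2.48 to 2.62 with any 1 replicate left out. With summits limited to 200 bp from the start it was 1.39 and no longer passed (p = 0.0763, Fisher's exact test).

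Compared with outermost-start peaks, the member starts were rich in GAGA sequences and poor in sequences of broadly used promoters. In this window 44.7% of the 508 members held GAGAG and 27.5% of the 1510 outermost-start peaks did (odds ratio 2.12, exact test, adjusted p = 1.03e-11). Each peak was counted here, so a start with more than 1 peak entered more than once. The p-values do not allow for this, and counting each start once was not tested for this comparison. The DRE, TATCGATA, lay at 0.591% of members and 9.54% of outermost-start peaks (odds ratio 0.0564, exact test, adjusted p = 1.48e-14), beside 6.25% of all starts. CGATA, the BEAF-32 core, which also lies within the DRE, was at 15.6% and 37.1% (exact test, adjusted p = 7.11e-20), beside 32.0% of all starts. GTCACACT, the M1BP core, was at 0.984% and 6.95% (exact test, adjusted p = 2.36e-08), beside 4.68%. CATCNCTA, the Ohler 7 core, was at 1.57% and 6.29% (exact test, adjusted p = 1.93e-05), beside 4.20%. Of the 1510 outermost-start peaks, 337 were at genes that also have an internal start. The comparison at the start was not repeated for these alone, so the classes also differ in the kind of gene.

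Of the other sequences at the start, TCAGT, the Initiator, was somewhat more frequent at members (43.5% compared with 37.7%, adjusted p = 0.0313, Fisher's exact test, 37.9% of all starts). CACACA, a CA repeat, was too (18.9% compared with 13.5%, exact test, adjusted p = 0.00833, 12.5% of all starts). TATAAA, the TATA box, was less frequent, at 8.86% compared with 14.8% (exact test, adjusted p = 0.00124, 21.8% of all starts). GCCAT, the core bound by the Polycomb recruiter Pho, was at 19.1% and 24.4% (exact test, adjusted p = 0.0247, 24.2% of all starts), and AGGTGGC, a CTCF core, was at 0.787% and 2.72% (adjusted p = 0.0161, 1.88% of all starts). In all, 10 of 15 sequences passed with each peak counted. A match is a description of the letters anywhere in the window and not of a bound site. Whether the Initiator and TATA letters stood at the position and strand of a core promoter element was not tested.

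Part of this contrast was shared by internal starts without a thresholded peak. There the DRE was at 1.20%, the M1BP core at 0.727% and the Ohler 7 core at 1.15%, and for none of these did the difference from member starts pass (adjusted p = 0.320, 0.534 and 0.609, Fisher's exact test). The 95% intervals of the differences were -1.38 to 0.426, -0.401 to 1.81 and -0.576 to 1.98 percentage points. Besides GAGAG, 3 sequences separated internal starts with a peak from those without. CGATA lay at 15.4% compared with 21.5% (exact test, adjusted p = 0.00919), TATAAA at 8.44% compared with 15.2% (adjusted p = 5.50e-04), and AAAAAAAA, an A run, at 4.11% compared with 8.98% (adjusted p = 0.00132), which was at 7.23% of all starts. All 3 were less frequent where a peak was present.

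The replicate lists, each taken to its 8529 strongest peaks, gave like values. GAGAG lay at 47.0% ± 1.21 of internal-start peaks and 28.3% ± 1.41 of outermost-start peaks (SD, n = 3). The DRE lay at 0.905% ± 0.107 and 9.82% ± 0.590, the M1BP core at 0.971% ± 0.213 and 7.38% ± 0.657, and the TATA box at 8.30% ± 0.999 and 16.3% ± 0.684.

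**Figure D1:**
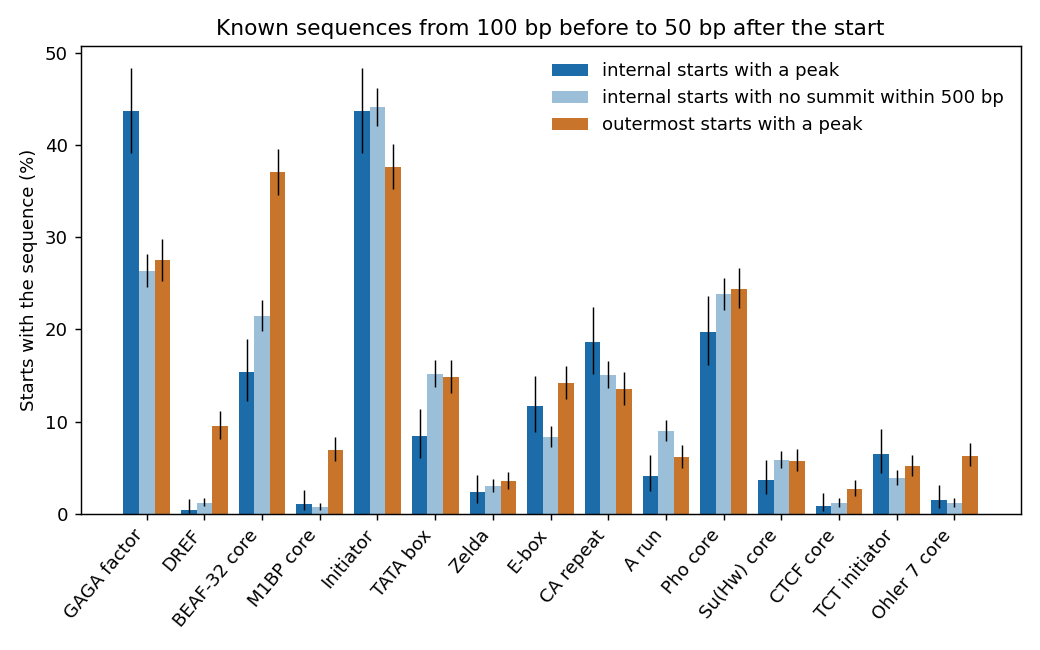
Share of starts (%) with each of 15 known sequences from 100 bp before to 50 bp after the start, for 462 internal starts with a peak, 2339 internal starts with no thresholded summit within 500 bp and 1510 outermost-start peaks. Bars are shares and lines are exact 95% binomial intervals. The GAGA factor bar is highest for internal starts with a peak, at 43.7%, and the DREF, M1BP and Ohler 7 bars stand out only for outermost starts.

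Within the 500 bp that the rule allows, the summits lay upstream of the internal start and farther from it than at outermost starts. Of 507 members with a summit off the start, 418 (82.4%, exact 95% interval 78.8 to 85.7) had it upstream (exact binomial test, p = 5.51e-52). Among outermost-start peaks the share was 79.7%, and in both classes together 80.2%. The difference in share, 2.75 points (-1.30 to 6.47), did not pass (odds ratio 1.20, p = 0.196, Fisher's exact test), and its direction was not stable. The odds ratio was 1.66 without replicate 3 (p = 0.00144, Fisher's exact test), but 0.960 without replicate 1 and 1.02 without replicate 2, neither of which passed. In replicate list 3 the share was 82.0% for internal and 85.7% for outermost starts. Against outermost-start peaks of genes that also have an internal start it was 1.66 (p = 0.00330, Fisher's exact test). The median summit of members lay 246 bp upstream, with quartiles at -347.5 and -103.5 bp, and that of outermost-start peaks 141 bp upstream. In replicates 1, 2 and 3 the internal median was at -211, -231.5 and -249 bp and the outermost median at -109, -128 and -158 bp. The internal median was the more distant one in each list, and no value of one class fell within the range of the other. The rule leaves out summits beyond 500 bp, and 8.07% of members and 2.52% of outermost-start peaks lay 450 to 500 bp upstream. These medians therefore depend on the window.

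**Figure D2:**
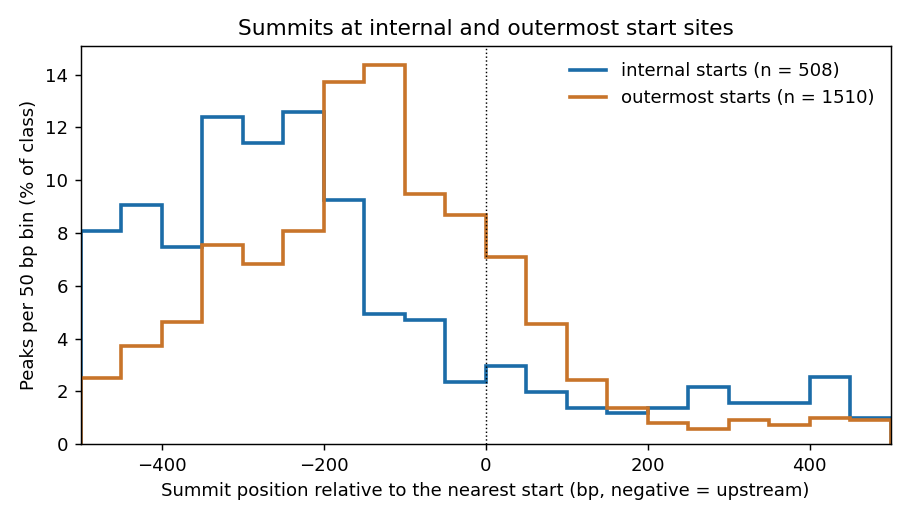
Summit position relative to the nearest start (bp, negative is upstream) for the 508 internal-start peaks and 1510 outermost-start peaks, as the share of each class (%) per 50 bp bin. The internal-start summits are spread mostly from 500 to 150 bp upstream, with a median of -246 bp, and the outermost-start summits are most frequent nearer the start, with a median of -141 bp. Summits beyond 500 bp are left out by the rule, so both medians depend on this limit.

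Around the summit the members were AT-rich, as other peaks were. The 101 bp at the summit had a median of 69.3% A and T, compared with 55.4% in a flank, an equally long window 300 bp away on the side of lower coordinates. Of 508 members, 408 (80.3%) had more A and T at the summit than in that flank and 96 had less. The medians were 67.3% for outermost-start peaks and 70.3% for all peaks. Of 10 AT-rich 8-base words ranked on the other promoter peaks, 9 were more frequent at member summits than in the flank (exact McNemar test, adjusted over the 10 words). ATTTAAAA lay at 51 member summits and 8 flanks (exact test, adjusted p = 1.82e-08), and TTTAAAAA at 41 and 8 (adjusted p = 5.35e-06). The exception was TAAATAAA, at 30 and 18 (exact test, adjusted p = 0.0961). At least 1 of the 10 words, which overlap each other and the TATA box, lay at 37.6% of member summits, 12.6% of flanks, 37.4% of outermost-start summits and 38.3% of all summits. For the 157 members with the summit within 200 bp of the start, no word passed.

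The GAGA sequence that marked the starts was less frequent at the summit than beside it. GAGAG lay in 13.8% of the 101 bp windows at member summits and in 26.6% of the flanks (exact McNemar test, adjusted p = 9.41e-06), beside 8.29% over all peaks. TATAAA went the other way, with 22.8% at summits and 12.4% in flanks (exact test, adjusted p = 1.10e-04), beside 27.2% over all peaks. CACACA (7.48% and 13.6%, exact test, adjusted p = 0.00898, 5.76% of all peaks) and GCCAT (9.25% and 16.3%, adjusted p = 0.00589, 11.5% of all peaks) were less frequent at the summit. The calls of the GAGA, TATA and CA repeat sequences held with any 1 replicate left out. That of GCCAT was lost without replicate 1, 2 or 3 (differences of -5.84, -4.86 and -1.76 points), with the flank on the other side (-4.33) and among stronger peaks (-6.05). The flank lies by coordinate and not by strand, so it was downstream for some members and upstream for others. With the median summit at -246 bp, a downstream flank centred 300 bp away lay near the start. The GAGAG difference is therefore not separate from the result at starts.

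No member summit window held the DRE. Among 508 members 0 had TATCGATA, which allows a share of up to 0.724% (upper end of the exact 95% interval), compared with 59 of 1510 outermost-start summits (3.91%, Fisher's exact test, adjusted p = 6.64e-07), and with 1.43% of all peaks. In this window 7 of the 15 sequences differed between the classes. CGATA (11.4% compared with 18.0%, 12.9% of all peaks), GTCACACT (0.197% compared with 1.46%, 0.610%), GCCAT (9.25% compared with 13.4%) and CATCNCTA (0.787% compared with 2.58%, 1.16%) were less frequent at members. GAGAG (13.8% compared with 9.34%) and AAAAAAAA (8.86% compared with 5.56%, 7.42% of all peaks) were more frequent. Adjusted p-values of these 6 ran from 0.00297 to 0.0331 in Fisher's exact tests. When both classes were limited to summits 150 to 350 bp upstream, leaving 233 members and 551 outermost-start peaks, none of the 15 passed, and the DRE lay at 0 and 3 summits. The DRE call was lost among stronger peaks (adjusted p = 0.199, Fisher's exact test) and held with any 1 replicate left out. Leaving out any 1 replicate left 1 or 2 of the 7 calls, as did the comparison with outermost-start peaks at genes that have an internal start (2).

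With the settings used above, the remaining sequences passed neither test at the summit, against the flank or against outermost-start peaks. TCAGT lay at 16.1% of member summits and 16.0% of all peaks. TGCATA, a Su(Hw) core, lay at 8.86% and 8.41%. CTCTTTC, the TCT initiator of ribosomal protein genes, lay at 2.76% and 1.38%, and CAGCTG, an E-box, at 2.56% and 2.74%. CAGGTA, bound by the early activator Zelda, lay at 1.77% and 1.89%, and AGGTGGC at 1.18% and 0.903%. Some passed against the flank under other settings. TGCATA was more frequent at summits with the flank on the other side (5.51 points) or 100 bp on each side (5.31). CTCTTTC was less frequent among stronger peaks (-4.63), without replicate 1 (-3.71) and with 100 bp on each side (-3.74). TCAGT was less frequent without replicate 1 (-7.16) or 2 (-7.30).

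Members were stronger than outermost-start peaks and close in rank to peaks near starts of more than 1 gene. Strength is the signal value deposited by the authors. Its scale is not stated, so it serves to rank peaks within a list. Member ranks ran from 3 to 8528 with a median of 3739.5, compared with 4660 for outermost-start peaks. The median was 3779 for peaks near starts of more than 1 gene. Of the members, 281 (55.3%, exact 95% interval 50.9 to 59.7) ranked above the median of the list, the point that splits all peaks evenly, compared with 679 of 1510 outermost-start peaks (45.0%, odds ratio 1.51, two-sided Fisher's exact test, p = 6.07e-05). In the replicate lists the shares were 55.8% ± 2.51 and 45.9% ± 1.59 (SD, n = 3). Among peaks near starts of more than 1 gene the share was 55.3%, and 55.0% ± 1.69 in the replicate lists, with no test. The odds ratio was again 1.51 (exact test, p = 0.00396) against the 337 outermost-start peaks of genes that also have an internal start. It was 1.20 and did not pass when starts within 200 bp defined both classes. The 200 strongest peaks of the list included 18 members (3.54% of the class) and 47 outermost-start peaks (3.11%). They also included 42 peaks near starts of more than 1 gene (3.49%).

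Agreement between replicates was close to that of the whole list. A peak was matched when a replicate list had a summit within 100 bp among its 8529 strongest. Of the members, 84.1%, 82.9% and 85.0% were matched in replicates 1, 2 and 3, and 335 (65.9%, 61.6 to 70.1) in all 3, beside 65.6% of all peaks. Among outermost-start peaks 59.4% were (odds ratio 1.32, Fisher's exact test, p = 0.00992), but this call was lost without replicate 1 (1.16) or replicate 3 (1.25), among the stronger peaks (1.38) and with starts within 200 bp (1.06). Only 6 members were matched in no replicate. The thresholded list holds the strongest pooled peaks and comes from the same reads, so this is not an independent check.

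The strongest member was at px, which acts in wing vein patterning. Its signal value was 12079, its rank was 3, and it ranked 3, 2 and 2 in replicates 1, 2 and 3. The peak spanned chr2R:22513985-22514605 in an intron, 205 bp upstream of a start 47966 bp inside the gene that is used by 1 of 6 transcripts and has a coding start of its own. The peak at CG1888 followed at rank 15 (14, 21 and 15 in the replicates). Both kept their place near the top of every list.

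Among the 25 strongest members matched in all 3 replicates were peaks at kinase and GTPase regulator genes. The peak at gish, a casein kinase 1, ranked 33 (35, 25 and 60 in the replicates), upstream of a start within 500 bp of which 5 of 16 transcripts begin. That at for, the cGMP-dependent protein kinase of foraging behaviour, ranked 50 (76, 45 and 54), upstream of a start shared in this way by 7 of 13 transcripts. At RapGAP1, an inactivator of the GTPase Rap1, the rank was 46 (49, 64 and 48), and at Rgl, an activator of the GTPase Ral, 200 (313, 221 and 169). These starts lay between 5370 and 48406 bp inside the genes, and all 4 gave transcripts with their own coding start. The first 3 were among the 100 strongest peaks of every replicate.

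Others lay at genes of signalling and of transcription. At spi, which encodes a ligand of the EGF receptor, the rank was 218 (321, 354 and 167). At stumps, an adaptor of FGF receptor signalling, it was 132 (144, 129 and 135), and at numb, an inhibitor of Notch in asymmetric division, 213 (212, 216 and 235). The replicates lay closest together at numb and stumps. The Polycomb group gene ph-p ranked 38 (24, 31 and 49), with the summit 480 bp upstream of the start, close to the limit of the class. At Eip75B, an ecdysone-induced nuclear receptor, the rank was 172 (179, 153 and 219), 64875 bp inside the gene and 34 bp downstream of the start in a 5' UTR. It was the 1 peak of the 25 strongest with its summit downstream. The zinc-finger gene chn ranked 202 (323, 395 and 156).

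The other strong members lay at genes of cell structure, metabolism and RNA. Cell structure was represented by the formin Fhos at rank 55 (88, 118 and 35), the endoplasmic reticulum protein Rtnl1 at 89 (109, 100 and 96), centrosomin, cnn, at 237 (362, 324 and 201) and sky, a regulator of synaptic vesicle traffic, at 256 (416, 407 and 185). Replicate 3 gave the strongest rank at Fhos, Rtnl1, cnn and sky, and also at pdgy and bin3 below. At larp and PAN3 it was replicate 2. The acyl-CoA synthetase gene pdgy ranked 85 (93, 117 and 71). RNA genes were larp at 90 (100, 68 and 102), bin3 at 100 (131, 154 and 73) and the deadenylase subunit PAN3 at 220 (241, 167 and 268). The list was completed by Drat, CG8036, CG17834, brwl and CG44838, with ranks from 69 to 234.

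**Figure D3:**
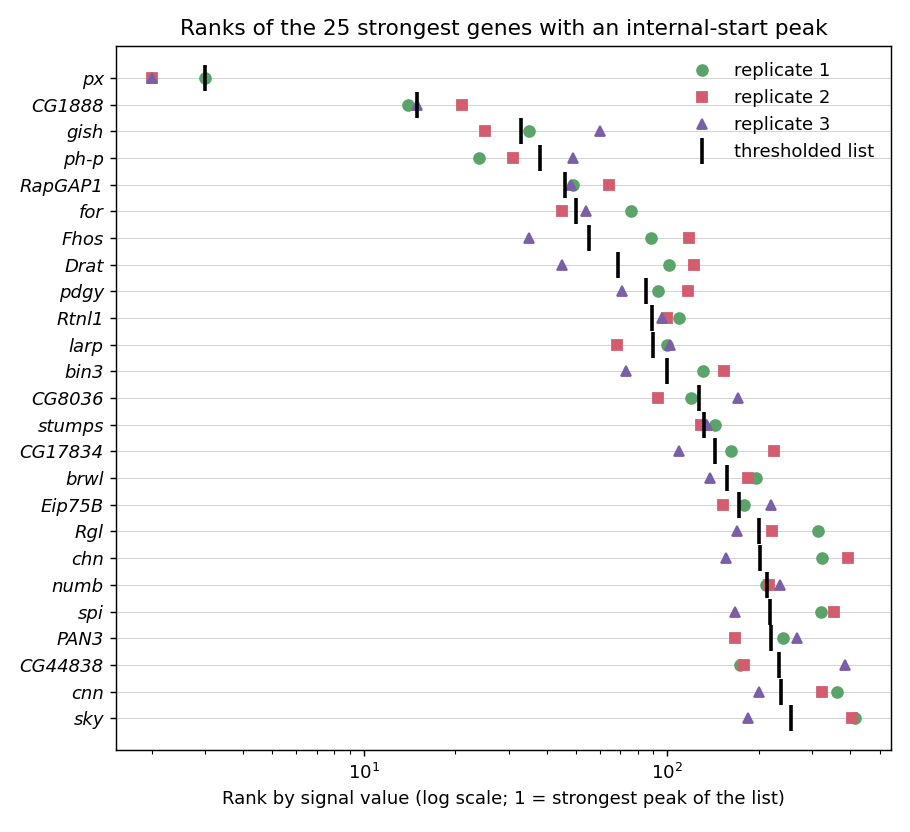
Rank by signal value (log scale, 1 is the strongest peak of a list) of the 25 strongest internal-start peaks matched in all 3 replicates, in replicates 1 to 3 (coloured markers) and the thresholded list (black bars). Replicate ranks run from 2 to 3 at px to 185 to 416 at sky. Only matched peaks are shown and the thresholded list shares reads with the replicates, so nearness to the bar is partly set by this choice.

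The internal starts lay far inside their genes. The distance from the outermost start had a median of 5698 bp, with quartiles at 2088 and 16611 bp and a range from 1001 to 160100 bp, compared with a median of 4960 bp over all 3001 internal start positions. All 508 summits lay within an annotated transcript of the same gene, which follows almost wholly from the rule. Of these, 440 (86.6%) lay in an intron, 58 (11.4%) in a 5' UTR, 5 in a non-coding exon, 4 in coding sequence and 1 in a 3' UTR. The farthest start was at Ten-a, a teneurin of neuronal connections (160100 bp, rank 6964). After it came 2 starts of dnc, the cAMP phosphodiesterase of learning, at 152967 and 118841 bp (ranks 5717 and 541), CG32816 at 135925 bp (rank 5647) and Svil, a supervillin, at 116883 bp (rank 1782).

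The coding start at member starts was compared with that at the outermost start. The first coding base of the transcripts from the internal start differed from that of the outermost start at 280 members, was the same at 216, and both kinds were present at 12, so 57.5% (new or both) could give another N-terminus. Of all internal start positions, each counted once, 54.4% had a new coding start. The share of the members was near this background. It counts peaks and includes those with both kinds, so these shares differ in unit. By distance, it was 32.0% of 122 members at 1000 to 2000 bp, 47.9% of 117 up to 5000 bp, 66.7% of 159 up to 20000 bp and 82.7% of 110 beyond. GAGAG at the summit was at 5.74%, 13.7%, 15.7% and 20.0% of these members. Median ranks were 4154, 3510, 3329 and 4430.5, with no steady order. These values are a description with no test.

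Some genes carried several members. There was 1 member at 304 genes, 2 at 69, 3 at 11, 4 at 7, and 5 at shn, a zinc-finger factor of BMP signalling. The 5 peaks at shn ranked 3902, 4085, 5855, 6032 and 7313, and 2 of them lay at 1 start. Of the 7 genes with 4 members, the 4 with the strongest peaks follow. RapGAP1 had 4, with ranks 46, 328, 2150 and 4721, of which 2 summits lay within 1 peak region. At Rtnl1 the 4 ranks were 89, 475, 823 and 2996, at 4 starts between 4792 and 12339 bp inside the gene. At Ptpmeg2, a tyrosine phosphatase, they were 363, 386, 523 and 5365, and at dnc 541, 843, 4323 and 5717. Members of 1 gene are not independent of each other.

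Peaks at the internal and outermost starts of the same gene were counted. Of 13945 protein-coding genes, 1752 had an internal start, and 392 of these (22.4%) had a member. Counting every summit within 500 bp, whichever other gene it also touched, 459 (26.2%) had a peak at an internal start and 541 (30.9%) at the outermost start. These included 161 with both, and 913 had neither. Whether the 2 kinds occur together more or less often than these shares give was not tested. The share with a member was 26.7% on X, 23.7% on 3L, 21.0% on 2L, 21.0% on 3R, 20.1% on 2R and 17.4% of 23 genes on chromosome 4. The CG18262 gene itself had no member.

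Within the 140 genes that had a member and any peak within 500 bp of the outermost start, the internal peak was the stronger one in 83 (59.3%, exact 95% interval 50.7 to 67.5, exact binomial test, p = 0.0342). The replicate lists gave 64.4%, 58.0% and 57.0% (59.8% ± 4.02, SD, n = 3), with p = 1.30e-04, 0.0654 and 0.145 in exact binomial tests. The outermost peak was one of the single-gene class in 76 of the 140 genes, and in the other 64 it also lay near a start of another gene. In the 76 genes the share was 59.2% (45 genes, exact binomial test, p = 0.135), and the call was lost. The strongest peak of each kind was compared, which favours the kind with more peaks. In the 99 genes with 1 peak of each kind, the share was 52.5% (exact binomial test, p = 0.688), and the call was lost there too. It was also lost without replicate 1 (59.8%, exact binomial test, p = 0.0857). The ratio of signal values, which takes the authors' scale as linear from 0, had a median of 1.28 (quartiles 0.683 and 3.74), with 50 genes at 2-fold or more and 26 in which the outermost peak was at least 2-fold stronger.

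The ratio differed widely between genes. At pdgy the internal peak had a signal value of 5073 and the outermost peak 321.3 (ratio 15.8, ranks 85 and 6798). The ratio was 14.8 at Rtnl1 (ranks 89 and 6589) and 12.5 at bin3 (ranks 100 and 5832). At the other end it was 0.0430 at CenG1A, an Arf GTPase activator (ranks 8467 and 45), 0.0749 at the prolyl isomerase Fkbp14 (ranks 3285 and 9) and 0.124 at the glycogenin Gyg (ranks 6551 and 377). At bin3, CenG1A and Gyg the outermost peak also lay near a start of another gene, so its signal cannot be given to 1 gene. At ph-p both peaks were strong (ranks 38 and 76), and at brwl too (ranks 157 and 54).

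**Figure D4:**
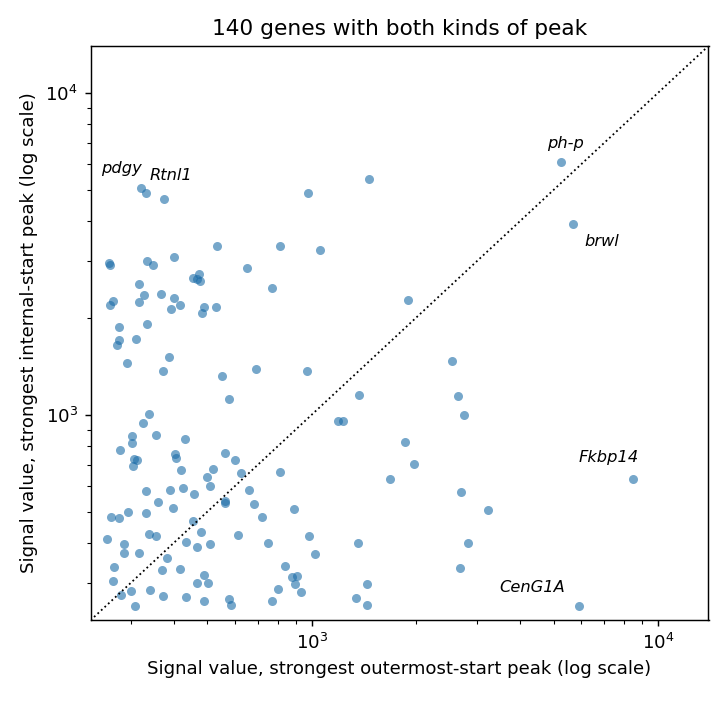
Signal value of the strongest internal-start peak against that of the strongest peak within 500 bp of the outermost start (both log scales, authors' units) in the 140 genes with both. In 64 of them, CenG1A included, the outermost peak also lies near another gene's start. Each point is a gene and the dotted line marks equal values. Most points lie above the line (83 genes), from pdgy at 15.8-fold to CenG1A at 0.0430-fold.

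The gene groups named below had been chosen with results of these data known, and their counts are a description beside the 22.4% of all genes with an internal start. Of the 392 genes, 78 were in at least 1 of 16 lists and 314 in none. The share was above 22.4% in 13 of the 16 lists, and the interval lay wholly above it in 2. Polycomb, Trithorax and remodelling genes had a member at 7 of 12 genes with an internal start (58.3%), including ph-p, its neighbour ph-d (rank 2815) and the corepressor Sin3A (rank 1962). As ph-p and ph-d are near-identical copies, reads there may be placed at either. Ecdysone response genes had 6 of 12, with Eip75B, Eip63E, a cyclin-dependent kinase (rank 3319), and the receptor gene EcR (rank 3746). The Wingless, Hedgehog and Notch pathways had 5 of 10, with numb, the ubiquitin ligase gene neur (rank 480) and the acetyltransferase gene nej (rank 2347).

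Receptor tyrosine kinase and MAP kinase genes had 8 of 17, led by spi, Btk (rank 287) and Src64B (rank 297), kinases of the Tec and Src families. BTB and architectural factors had 4 of 9, with lola (rank 616), Trl itself (rank 1860) and psq, another GAGA-binding factor (rank 4365). Other embryonic transcription factors had 12 of 31, led by dsx of sex determination (rank 712), the repressor cic (rank 753) and bun (rank 897). Other kinases and phosphatases had 9 of 24, with gish, for and sgg, the GSK3 kinase of Wingless signalling (rank 281). RNA-binding proteins had 9 of 26, with larp, the splicing factor mbl (rank 563) and Imp (rank 966).

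The cytoskeleton and muscle list had 10 of 32, with Lmpt (rank 553), the nesprin Msp300 (rank 606) and the tropomyosin Tm1 (rank 640). Adhesion and axon guidance had 5 of 16, led by the netrin receptor unc-5 (rank 428), followed by Sema2a (rank 6345) and Ten-a. Insulin, TOR and autophagy had 3 of 11, with REPTOR (rank 267), Atg8a (rank 4152) and InR (rank 7267). Hox genes and cofactors had 2 of 6, Antp (rank 3792) and lab (rank 6727), and sex determination and dosage compensation had 1 of 3, dsx. The share was near or below the whole in Hippo and polarity genes, with 2 of 9 (dlg1, rank 6192, and aPKC, rank 8163), and in ion channel and synapse genes, with 2 of 22 (9.09%, exact 95% interval 1.12 to 29.2), which were dnc and dlg1. Of cytosolic ribosomal protein genes 2 had an internal start and neither had a member. All intervals but those of the Polycomb and receptor tyrosine kinase lists contained 22.4%.

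**Figure D5:**
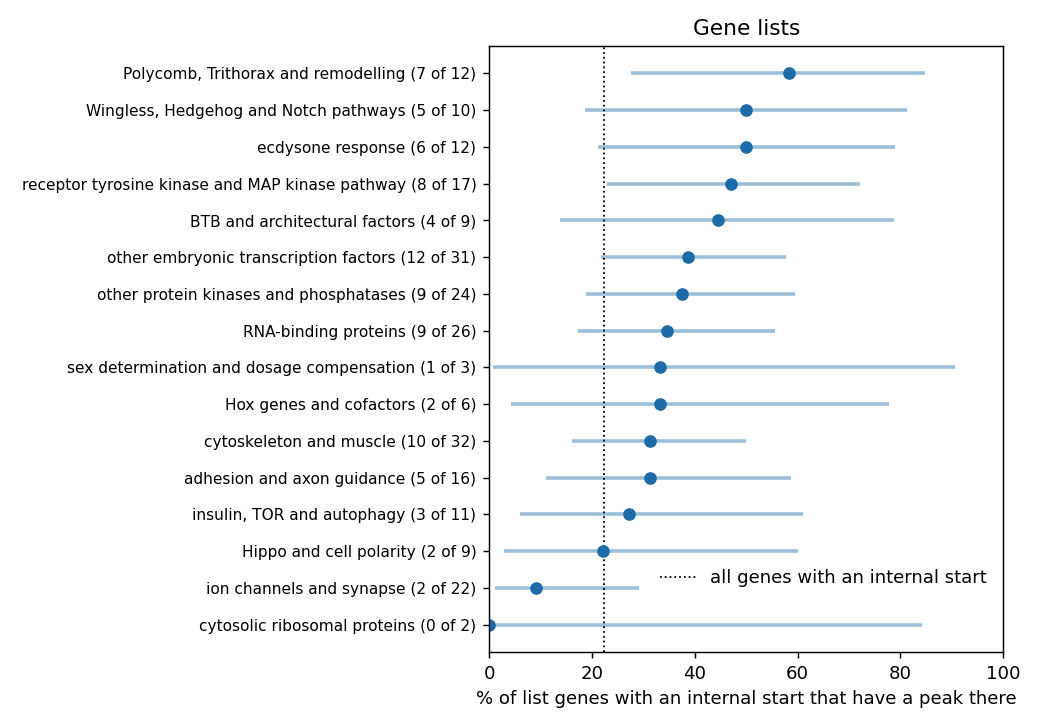
Share of genes with an internal start that have an internal-start peak (%), for 16 gene lists, with the counts beside the names. Points are shares, lines are exact 95% binomial intervals, and the dotted line is the 22.4% of all 1752 genes with an internal start. The shares run from 58.3% for the Polycomb list to 0 of 2 for ribosomal proteins.

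The thresholds of the class cut through a continuous set. Just inside 500 bp from the start were peaks at CG6891 (500 bp, rank 1014), CG13954 (500 bp, rank 7655) and Pdp1 (499 bp, rank 2276), and just outside were CG10543 (503 bp, rank 2237), bol (503 bp, rank 8028) and pyd (505 bp, rank 6356). Just inside 1000 bp from the outermost start were ERR (1001 bp), Adk2 (1003 bp) and wrd (1021 bp), and just outside were CG15784 (994 bp), Cpr (989 bp) and Sxl (987 bp). Control alignments and embryos without the tag were not analysed here, so binding of CG18262 cannot be told apart from signal that open promoters give with any antibody.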

How the data were processed

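ChIP-seq peak lists of 3 biological replicates, a pooled list and its thresholded part were analysed on dm6. Per the labels, fragments of 200 to 800 bp were taken. For the aligner and peak caller, names and versions were not given in the sources used here. The signal value is the deposited one, and the deposited summit offset (column of other values) was added to the peak start. Each replicate and pooled list held 30000 peaks, of which the 8529 strongest were used, and the thresholded list was found to equal the 8529 strongest pooled peaks.

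Start sites came from Ensembl release 115 of BDGP6.54 and sequences from the RefSeq genome of the same assembly. Known sequences were searched on both strands within 50 bp of the summit. Tests were two-sided Fisher's exact, exact McNemar and exact binomial tests (SciPy 1.17.1, Python 3.11.15), called at p or adjusted p under 0.05 with Benjamini-Hochberg adjustment, and shares have Clopper-Pearson intervals and differences Newcombe intervals, which cover counting error only. Peaks are not independent replicates, so these p-values describe peaks of the 3 libraries. The code was tested on simulated data.

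Members, gene lists and tests were chosen with earlier results of these data known. Genes named were the 25 strongest matched members, the 3 strongest of each list, the 5 genes with most members (ties broken by the strongest peak), the 5 farthest starts, the 3 highest and 3 lowest within-gene ratios and the peaks beside each threshold. Comparisons at the start, in the upstream band, at genes with 1 peak of each kind and against starts without a peak were added after seeing the data.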

Additional observations from a re-analysis of the deposited data

Results flagged for a closer look

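Below the threshold, 993 of the 21471 remaining pooled peaks (4.62%) lay at internal starts by the same rule, and no comparison above uses these peaks. Starts beside them with no thresholded summit within 500 bp were counted above as starts without a peak. The 993 peaks touched 404 genes that had no thresholded member. No control sample was analysed, so a background level for them was not measured.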

How the results depend on the processing

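The class rule set its size. It held 157 peaks with starts within 200 bp and 281 among the stronger peaks. With starts within 200 bp, the odds ratio of matching fell to 1.06 and that of ranking above the median to 1.20, the internal peak was stronger in 48.6% of genes (reversed), no known sequence or word differed from the flank (0 and 0), TATAAA was 0.637 points lower at summits than in flanks (a difference of -0.637, reversed), and 4 known sequences differed from outermost-start peaks. These values rest on fewer peaks, nearer the start, and the cause was not tested. The share of genes with a member was 8.56% with 200 bp, 27.3% with 1000 bp and 13.6% among stronger peaks. The share with another coding start was 49.7% with 200 bp, 52.3% and 65.0% with internal starts over 500 and 2000 bp, and 53.0% among stronger peaks. The odds ratio of an upstream summit passed with starts within 1000 bp (1.24, p = 0.0406, Fisher's exact test) and against outermost-start peaks of genes with an internal start (1.66). It ranged from 0.960 to 1.66 with 1 replicate left out.

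The within-gene share lost its call with internal starts over 2000 bp (57.9%), among stronger peaks (51.4%), with summits within 250 bp merged (58.2%), with 1 peak of each kind (52.5%) and with outermost peaks at 1 gene only (59.2%), and without replicate 1. It was 59.8% to 64.8% with 1 replicate left out. The odds ratio of matching was 1.38 among stronger peaks, 1.23 against outermost-start peaks of genes with an internal start and 1.16 to 1.46 with 1 replicate left out. The count of known sequences against outermost-start peaks, 7, was 2 over 2000 bp, 0 among stronger peaks and 3 with merged summits. It was 1 with 25 bp on each side, 0 in the upstream band and 2 against genes with an internal start. With 1 replicate left out it was 1 to 2. The comparison of internal starts with and without a peak, which holds no outermost-start peaks, gave 4. Against the flank the count was 7 with 100 bp on each side. The other 79 recomputed values of these comparisons kept their direction and side of the threshold or stayed within the tolerance. No paired analysis was possible because all samples form 1 group. The depth is unknown, and a member's absence from a list shows only that it ranked lower.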
